A study of Homo sapiens with 47 samples.

Results

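The ZNF genes expressed in PC3 cells were followed here through their RNA and through the histone marks at their promoters. A gene was taken when its symbol began with ZNF and a number, when it was annotated as protein-coding, and when its normalised reads averaged at least 50 over the 3 empty-vector libraries. The genes were therefore selected on empty-vector RNA values. These criteria left 84 of 513 protein-coding ZNF genes, and 6694 protein-coding genes of any family reached the same level. PC3 is a human prostate cancer line. The tested lines carried an overexpression construct for DDC, the decarboxylase that makes serotonin and dopamine, or for SLC6A4, the plasma membrane serotonin transporter. The reference line carried an empty vector. All 3 lines were transduced PC3 cells kept in serum-containing medium, and the labels do not say whether a line was a pool or a clone. RNA-seq and ChIP-seq for H3K4me3 and for H3K4me3Q5ser had 3 libraries per line, as did the input used here from the DDC and empty-vector lines. The labels number these libraries but do not say that they came from separate cultures, so p-values measure the spread between libraries, which may be technical. A CUT&Tag profile of H3K4me3 had 1 library each for SLC6A4 cells with an shRNA against TGM2, for SLC6A4 cells and for control cells.

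ZNF genes encode C2H2 zinc-finger proteins, in which a run of fingers, each folded around a zinc ion, reads a stretch of DNA or RNA. Many of those on chromosome 19 stand in tandem clusters and add a KRAB domain, which recruits the corepressor TRIM28 and, through it, heterochromatin enzymes that silence transposable elements. H3K4me3 is a methyl mark of active promoters, and the enzyme TGM2 can attach serotonin to the neighbouring glutamine of the same histone tail to give H3K4me3Q5ser.

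The 84 genes were mostly expressed just over the threshold. Their empty-vector means ran from 50.2 to 3401 normalised reads with a median of 89.2, against a median of 192 over all protein-coding genes past the same threshold. Of all 513 ZNF genes, 54 had no read in the empty-vector libraries, 172 averaged under 10 and 203 lay between 10 and 50. Another 48 lay between 50 and 100, 33 lay above that level without reaching the highest class, and 3 (ZNF706, ZNF593 and ZNF593OS) formed the highest class. Just inside the threshold were ZNF35 at 50.2, ZNF75A at 50.3 and ZNF346 at 52.4, and just outside it ZNF251 at 49.7, ZNF28 at 49.6 and ZNF532 at 49.0. Because the empty-vector RNA chose the genes, counts of genes called against the empty vector are given below as a description. The direct contrast of DDC with SLC6A4 cells and the promoter marks did not enter the choice.

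Per kilobase of transcript, the highest empty-vector levels were those of ZNF706 at 1273 normalised reads, ZNF593 at 1061, its antisense-named neighbour ZNF593OS at 486, ZNF622 at 232, ZNF330 at 199.8 and ZNF581 at 182. None of these 6 matched a KRAB domain in its translated sequence. ZNF593 and ZNF622 are relatives of yeast proteins that mature the large ribosomal subunit (Bud20 and Rei1), ZNF330 is a nucleolar protein, and ZNF706 is a short protein with a single finger. ZNF593 and ZNF593OS overlap and had nearly equal read numbers in every library; whether reads were counted by strand is not given in the sources used here, so their reads cannot be told apart.

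Chromosome 19 held 34 of the 84 genes and chromosome 1, the next, held 8. Translation of the canonical transcripts gave a structure for 83. Of these, 34 matched a KRAB domain pattern (its A-box). A SCAN domain, a dimerisation module, was matched in 4 (ZNF496, ZNF394, ZNF24 and ZNF75A). Those with no KRAB match, among them ZNF496 and ZNF394, are called genes without KRAB below, though a match can miss a diverged domain. Of the KRAB genes, 26 lay on chromosome 19 and 8 elsewhere. Fingers numbered 10 or more in 40 genes, 5 to 9 in 23 and 1 to 4 in 17, and 3 genes (ZNF593OS, ZNF330 and ZNF185) matched no C2H2 finger. ZNF142 had the most with 36, followed by ZNF462 with 33 and ZNF814 with 23. The median was 12.5 fingers for KRAB genes of chromosome 19 and 10 for KRAB genes elsewhere. Genes without KRAB had a median of 9 fingers on chromosome 19 and 5 elsewhere. KRAB genes were expressed at about the same level as the others, with median empty-vector means of 85.4 and 92.2.

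Promoter sequences were matched for 72 of the 84 genes, 31 on chromosome 19 and 41 elsewhere, as 250 bases before and 50 bases after the start from RefSeq (GRCh38.p14). The letters CCGGAAG, the core bound by ETS factors, stood in 48.4% of the chromosome 19 windows and in 29.3% of those elsewhere. The share was 23.4% among 5393 protein-coding genes expressed at the same level, 21.6% among 301 of them on chromosome 19 and 10.7% among 27305 promoters of all kinds. The CCAAT box (CCAAT) was in 54.8% of chromosome 19 windows, in 29.3% elsewhere and in 38.5% at the same level. The GC box (GGGCGG) was in 74.2% of chromosome 19 windows, in 68.3% elsewhere and in 71.4% at the same level. No chromosome 19 window held TATAAA, against 12% of all promoters. Each motif was sought on both strands, and a match describes letters only. The 6 windows below belong to genes whose H3K4me3 in SLC6A4 cells was among the most clearly higher (ZNF773, ZNF547, ZNF468, all KRAB genes of chromosome 19) or lower (ZNF217, ZNF281, ZNF330). They are shown so that both kinds can be compared, and were picked after the values were seen. Capitals mark the ETS core, the GC box and the CCAAT box on either strand, and each sequence runs 5′ to 3′ on the gene's strand. They lie at chr19:57499688-57499987 (plus), chr19:57363301-57363600 (plus), chr19:52857570-52857869 (minus), chr20:53593790-53594089 (minus), chr1:200409987-200410286 (minus) and chr4:141220645-141220944 (plus).
ZNF773: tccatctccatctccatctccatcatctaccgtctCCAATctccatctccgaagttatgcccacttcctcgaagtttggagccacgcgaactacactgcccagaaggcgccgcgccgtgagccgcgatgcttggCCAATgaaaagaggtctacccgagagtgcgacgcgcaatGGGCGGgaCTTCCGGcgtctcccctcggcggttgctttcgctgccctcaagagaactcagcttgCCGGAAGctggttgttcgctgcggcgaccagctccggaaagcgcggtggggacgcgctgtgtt
ZNF547: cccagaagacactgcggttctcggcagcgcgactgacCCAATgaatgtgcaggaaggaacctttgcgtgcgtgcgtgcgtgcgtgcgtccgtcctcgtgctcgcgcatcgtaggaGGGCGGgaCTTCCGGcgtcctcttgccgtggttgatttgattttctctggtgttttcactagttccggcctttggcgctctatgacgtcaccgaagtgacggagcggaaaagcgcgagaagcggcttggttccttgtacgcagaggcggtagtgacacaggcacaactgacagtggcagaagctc
ZNF468: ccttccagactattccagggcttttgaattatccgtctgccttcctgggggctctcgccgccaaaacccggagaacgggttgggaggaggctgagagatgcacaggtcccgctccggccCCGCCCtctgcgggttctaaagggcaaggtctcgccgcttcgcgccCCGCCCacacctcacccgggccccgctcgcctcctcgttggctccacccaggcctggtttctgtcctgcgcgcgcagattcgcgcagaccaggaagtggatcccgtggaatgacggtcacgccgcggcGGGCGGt
ZNF217: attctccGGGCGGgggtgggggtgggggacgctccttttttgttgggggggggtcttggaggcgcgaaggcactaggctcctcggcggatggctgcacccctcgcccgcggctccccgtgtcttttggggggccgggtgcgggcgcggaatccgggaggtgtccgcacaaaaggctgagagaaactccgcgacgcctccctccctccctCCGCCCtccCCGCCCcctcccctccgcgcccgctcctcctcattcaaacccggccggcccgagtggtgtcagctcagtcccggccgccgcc
ZNF281: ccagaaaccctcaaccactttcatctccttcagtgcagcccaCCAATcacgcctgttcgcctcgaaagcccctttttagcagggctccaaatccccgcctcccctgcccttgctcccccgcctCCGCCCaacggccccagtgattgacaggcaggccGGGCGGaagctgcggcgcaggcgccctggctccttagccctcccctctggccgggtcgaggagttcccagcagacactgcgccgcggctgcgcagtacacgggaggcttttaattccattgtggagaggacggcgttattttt
ZNF330: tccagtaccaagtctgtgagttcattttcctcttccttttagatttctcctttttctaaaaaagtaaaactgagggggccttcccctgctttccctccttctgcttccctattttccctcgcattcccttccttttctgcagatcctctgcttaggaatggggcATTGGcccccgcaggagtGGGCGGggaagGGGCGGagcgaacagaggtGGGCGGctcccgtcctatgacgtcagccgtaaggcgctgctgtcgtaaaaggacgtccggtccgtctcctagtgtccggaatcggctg
ZNF773 held 2 ETS cores, 1 GC box and 2 CCAAT boxes, and ZNF547 held 1 of each, with the GC box followed closely by an ETS core in both. ZNF468 held 3 GC boxes and neither of the other motifs, as did ZNF217. ZNF281 and ZNF330 held GC boxes and 1 CCAAT box each and no ETS core.

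The labels were checked in the RNA first. DDC had 79 reads over the 3 DDC libraries, 3 in SLC6A4 cells and 1 in empty-vector cells, and SLC6A4 had 2 in DDC cells, 344 in SLC6A4 cells and 1 in empty-vector cells. Further reads are sums over 3 libraries in the same order of lines. Reads in genes ran from 17284019 to 21745703 per RNA library. TGM2 differed between the lines, with a log2 change of -0.49 in DDC cells and 0.73 in SLC6A4 cells against empty vector. Of the epithelial markers, KRT8 had 12817 reads in DDC cells, 23282 in SLC6A4 cells and 20197 in empty-vector cells, KRT18 had 10003, 9596 and 14573, and EPCAM had 76, 236 and 307. The mesenchymal marker VIM had 6962, 8678 and 6440. KLK3 had no reads. Of the markers of other cell types, PTPRC had 0, 1 and 0 reads, CHGA 1, 0 and 1, SYP 29, 34 and 14, COL1A1 39, 67 and 130 and PECAM1 226, 139 and 677. Both PECAM1 and COL1A1 were highest in empty-vector cells, and their part in the results was not tested. In bulk RNA, fewer cells that express a gene and less of its RNA per cell cannot be told apart.

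**Figure D1:**
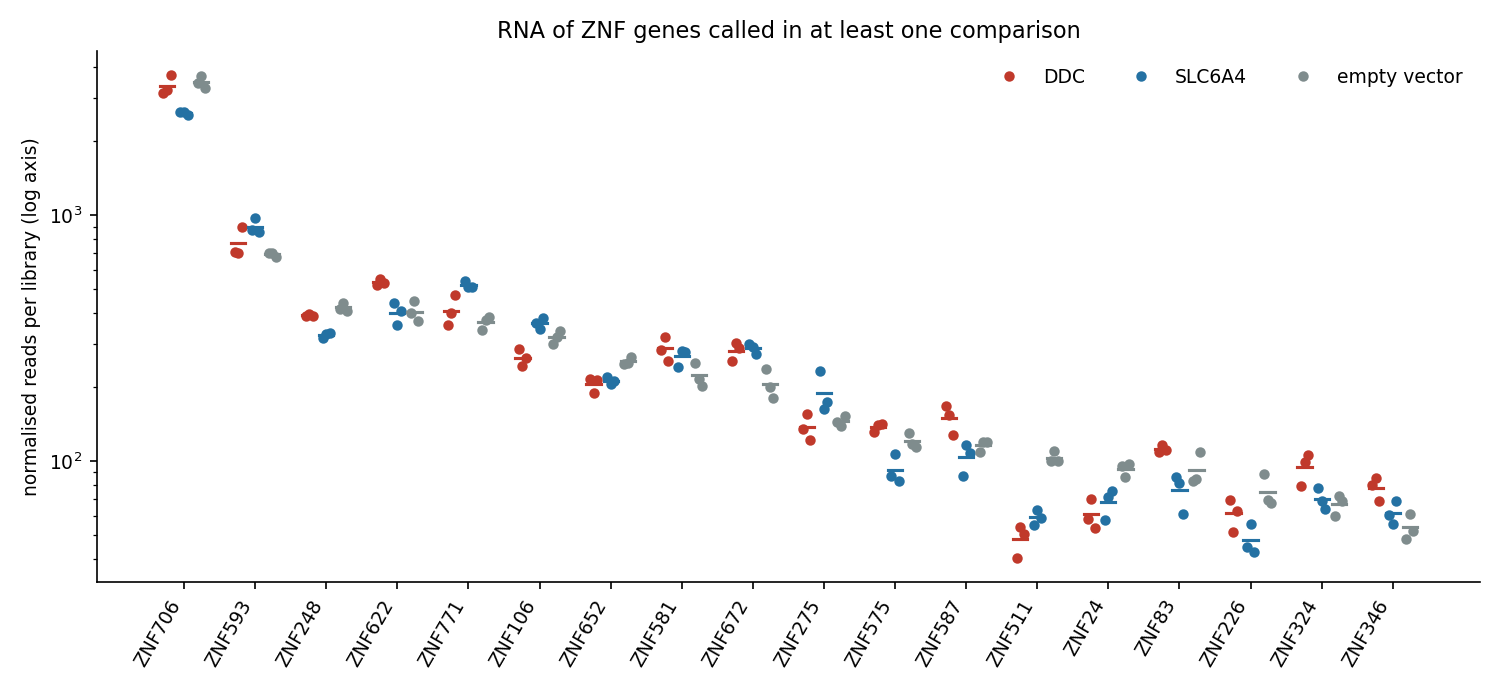
Normalised reads per library (log axis) of 18 ZNF genes called in at least 1 RNA comparison, for DDC, SLC6A4 and empty-vector libraries; each point is a library and each group has 3. In every comparison that called a gene, the 3 libraries of one line lie wholly above the 3 of the other.

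In DDC cells the RNA of 5 ZNF genes rose and that of 3 fell against empty vector, and 76 of the 84 did not pass the test (limma with Benjamini-Hochberg adjustment over all genes, adjusted p under 0.05). The median log2 change was 0.05. Over all genes tested 8.94% rose and 8.41% fell. ZNF511 fell to 39.6, 52.7 and 49.7 normalised reads in DDC cells, against 97.4, 107 and 97.9 in empty-vector cells (log2 change -1.08, SE 0.16, adjusted p = 4.29e-05). All DDC libraries lay below all empty-vector libraries. The read-through gene ZNF511-PRAP1, which shares exons with ZNF511 and cannot be separated from it, had 23.4, 31.2 and 30.2 in DDC cells, against 60.3, 60.5 and 64.2. ZNF24, a SCAN factor known to repress VEGFA, had 56.9, 68.8 and 52.6 in DDC cells, against 93.4, 83.8 and 95.4 in empty-vector cells (log2 change -0.61, SE 0.16, adjusted p = 0.00924).

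The rises in DDC cells were smaller. ZNF622, the Rei1 relative, had 511, 539 and 519 normalised reads in DDC cells, against 391, 435 and 364 in empty-vector cells (log2 change 0.40, SE 0.09, adjusted p = 0.00421). ZNF672 had 249, 296 and 282, against 232, 195 and 177 (log2 change 0.45). ZNF346, a protein that binds double-stranded RNA, had 78.2, 83.8 and 67.3, against 47.2, 59.4 and 50.7 (log2 change 0.54). ZNF581 and the KRAB gene ZNF324 rose by log2 changes of 0.37 and 0.49. These 4 calls were lost on leaving out a single library: ZNF581 without DDC 1 or 2 or empty vector 2 or 3, ZNF672 without empty vector 3, ZNF324 without DDC 2 or 3 or any empty-vector library, and ZNF346 without DDC 1 or 2 or empty vector 1 or 3. Their highest adjusted p over all alternatives were 0.167, 0.058, 0.198 and 0.204. Scaling by library size alone moved the median of all genes to -0.12 and turned the 5 rises and 3 falls into 1 and 8. Over all 13045 genes tested it gave 594 rises and 1797 falls. Testing the recovered reads gave 5 rises and 5 falls with edgeR, beside 1077 and 1235 over all genes. With DESeq2 it gave 2 and 2, beside 779 and 689 over all genes, and ZNF24 had an adjusted p of 0.0826. ZNF511, ZNF511-PRAP1 and ZNF622 were called under all 12 alternatives.

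In SLC6A4 cells 4 ZNF genes rose and 8 fell against empty vector, with a median log2 change of -0.04. Over all genes 10.2% rose and 9.28% fell. ZNF771 had 553, 529 and 524 normalised reads in SLC6A4 cells, against 350, 385 and 397 in empty-vector cells (log2 change 0.51, SE 0.08, adjusted p = 0.000135). ZNF593 had 894, 1004 and 879, against 720, 722 and 696 (log2 change 0.37, SE 0.07, adjusted p = 0.000805), and ZNF593OS gave the same log2 change. ZNF672 had 307, 299 and 281, against 243, 206 and 187 (log2 change 0.49). The 3 SLC6A4 libraries were above the 3 empty-vector libraries for each of these genes.

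Among the 8 that fell in SLC6A4 cells was ZNF706, the most abundant ZNF transcript, known in mouse embryonic stem cells to repress Klf4. It had 2708, 2720 and 2638 normalised reads in SLC6A4 cells, against 3554, 3785 and 3399 in empty-vector cells (log2 change -0.41, SE 0.05, adjusted p = 2.98e-05). ZNF511 had 56.3, 65.4 and 60.4, against 102, 113 and 103 (log2 change -0.80), and ZNF511-PRAP1 a log2 change of -0.68. The KRAB gene ZNF248 had 326, 338 and 340, against 427, 452 and 422 (log2 change -0.37, adjusted p = 0.00218). ZNF226, also with KRAB, had 45.8, 57.0 and 44, against 90.6, 71.5 and 69.4 (log2 change -0.65), and lost its call without empty vector 1. ZNF24, ZNF575 and the repressor ZNF652 fell by 0.45, 0.39 and 0.26 on the log2 scale. ZNF24 lost its call without any 1 of the empty-vector libraries or SLC6A4 1 or 2, ZNF575 without any 1 of the empty-vector libraries or SLC6A4 1 or 3, and ZNF652 without any 1 of the 6. The highest adjusted p of ZNF226, ZNF24, ZNF575 and ZNF652 were 0.093, 0.249, 0.278 and 0.255. DESeq2 on the recovered reads gave 4 rises and 3 falls, beside 913 and 756 over all genes, and ZNF511-PRAP1 then had an adjusted p of 0.0884. ZNF511, ZNF706, ZNF248, ZNF593, ZNF593OS, ZNF672 and ZNF771 were called under all 12 alternatives.

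Both comparisons used the same empty-vector libraries. ZNF511, ZNF511-PRAP1 and ZNF24 fell and ZNF672 rose in both lines, and no ZNF gene was called in opposite directions. Over the 3 RNA comparisons 20 of the 84 genes were called at least once and 64 in none. The 20 count ZNF593OS and ZNF511-PRAP1 beside ZNF593 and ZNF511, whose reads cannot be told apart. No share of all genes called in both lines, in the same or opposite directions, or called at least once is given here. These counts are therefore only a description. Of protein-coding genes expressed at the same level, 13.6% rose and 11.1% fell in DDC cells, and 15.6% rose and 12.8% fell in SLC6A4 cells. Between DDC and SLC6A4 cells, 10.2% of them were higher and 9.58% lower.

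Set directly against SLC6A4 cells, DDC cells had 6 ZNF genes higher and 3 lower, beside 6.47% and 6.74% of all genes, and the median log2 difference was 0.11. Scaling by library size alone moved the median of all genes to -0.08 and gave 4 higher and 5 lower. Over all 13660 genes tested it gave 569 higher and 1427 lower. ZNF706 had 3148, 3230 and 3730 normalised reads in DDC cells, against 2640, 2641 and 2570 in SLC6A4 cells (log2 difference 0.36, SE 0.07, adjusted p = 0.00142). ZNF575 had 131, 141 and 142, against 87.4, 107 and 82.7 (log2 difference 0.58, SE 0.13, adjusted p = 0.0036). ZNF622 had 522, 551 and 529, against 438, 359 and 410 (log2 difference 0.41, SE 0.09, adjusted p = 0.00411). ZNF106, an RNA-binding protein, was lower, with 286, 244 and 263 in DDC cells, against 366, 346 and 384 in SLC6A4 cells (log2 difference -0.47, SE 0.09, adjusted p = 0.0015). The groups did not overlap for any of these 4 genes, and they were called under all 15 alternatives.

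The other 5 calls of the direct contrast were each lost on leaving out 1 or another library. Their differences kept direction in each such run, and that of ZNF248 stayed between 0.25 and 0.28. ZNF83 had 109, 117 and 111 in DDC cells, against 86.5, 81.7 and 60.8 in SLC6A4 cells (log2 difference 0.57), and was not called without DDC 2 or SLC6A4 3. ZNF587, whose reads may be shared with its near copy ZNF587B, had 167, 154 and 128, against 87.4, 116 and 108 (log2 difference 0.53), and was not called without DDC 1 or SLC6A4 1. ZNF248 (0.27), ZNF771 (-0.35) and ZNF275 (-0.45) were lost without DDC 1 or 2 or any SLC6A4 library, without DDC 1 or 2 or SLC6A4 1, and without DDC 1 or 3 or SLC6A4 1. The highest adjusted p of these 5 over the alternatives were 0.112, 0.0732, 0.171, 0.0957 and 0.198.

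Most KRAB genes had positive differences between DDC and SLC6A4 cells, few of which passed the test. The log2 difference was above 0 for 30 of 34 KRAB genes, with a median of 0.20, while 2 were called higher and none lower. Genes without KRAB had a median of -0.04, with 4 called higher and 3 lower. By position, 29 of 34 genes on chromosome 19 were above 0, with a median of 0.16, 3 called higher and none lower. Elsewhere the median was -0.03 with 3 called each way. The other 379 protein-coding genes of chromosome 19 at the same expression level had a median of 0.07, with 83 higher and 23 lower. Of these 379, 250 were above 0. Of 107 ZNF genes of chromosome 19 under the expression threshold, 78 were above 0, with a median of 0.20. Over all genes 6787 of 13544 were above 0 and the median was 0.00. Against empty vector, the KRAB genes had a median of 0.06 in DDC cells, with 1 higher and none lower, and of -0.16 in SLC6A4 cells, with none higher and 2 lower.

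Genes that act with KRAB zinc-finger proteins were read from a list of 22 corepressor and heterochromatin genes. In DDC cells TRIM28, the KRAB corepressor, rose by a log2 change of 0.40, while CBX1 (-0.41) and CBX3 (-0.40), both heterochromatin proteins, TASOR (-0.70), of the HUSH silencing complex, and the chromatin remodeller ATRX (-0.60) fell, that is 4.55% of the list higher and 18.2% lower beside 8.94% and 8.41% of all genes. In SLC6A4 cells TRIM28 (0.45), the DNA methyltransferase DNMT1 (0.44) and its partner UHRF1 (0.62) rose and none fell, 13.6% of the list beside 10.2% of all genes. Between DDC and SLC6A4 cells HDAC1 (0.27) and DAXX (0.31) were higher, and CBX1 (-0.36), CBX3 (-0.43) and UHRF1 (-0.47) lower, 9.09% and 13.6% of the list beside 6.47% and 6.74% of all genes. With 22 genes these shares rest on 5 or fewer genes each.

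**Figure D2:**
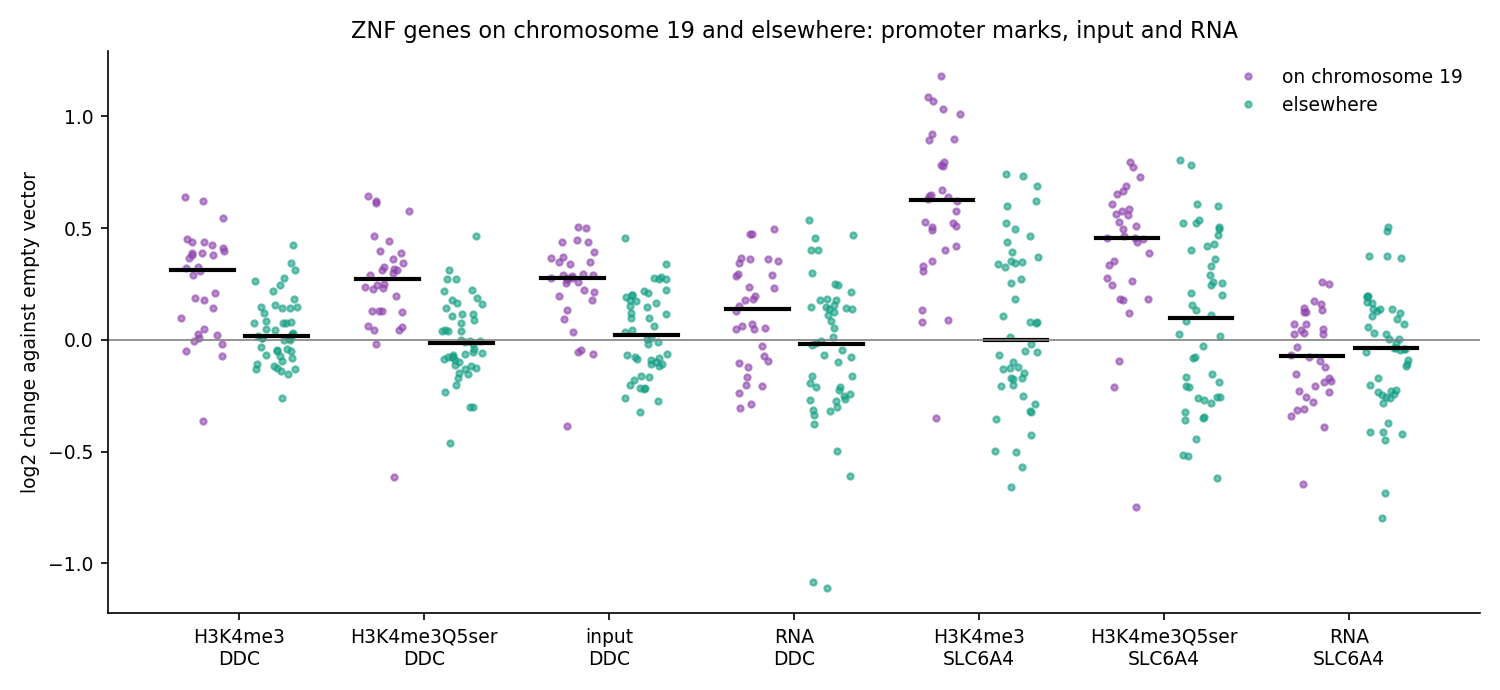
Log2 change against empty vector in DDC and SLC6A4 cells of H3K4me3Q5ser, H3K4me3, input and RNA for ZNF genes on chromosome 19 and elsewhere. Input is shown for DDC cells only. Each point is a gene or its promoter region and bars are medians. H3K4me3 on chromosome 19 has a median of 0.31 in DDC cells and 0.62 in SLC6A4 cells, and elsewhere 0.02 and 0.00.

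For the marks, read pairs were counted in 19535 regions of the authors' H3K4me3Q5ser peak set, and 83 of the 84 starts lay within 1000 bp of one (the exception was ZNF814). These starts fell in 80 distinct regions, 32 on chromosome 19 and 48 elsewhere, with a median length of 8850 bp. ZNF593 shared a region with ZNF593OS, ZNF511 with ZNF511-PRAP1 and ZNF490 with ZNF791, and counts below are over regions. Read pairs in the regions numbered 13511040 to 24765380 per H3K4me3Q5ser library, 3429714 to 5811116 per H3K4me3 library and 1394509 to 1833609 per input library. The median CPM, with pairs in these regions as the total, was 93.4 for H3K4me3Q5ser, 94.7 for H3K4me3 and 89.7 for input in DDC cells, against 87.6, 85.9 and 80.8 in empty-vector cells. On this scale a promoter's share of the input was close to its share of either mark.

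In SLC6A4 cells H3K4me3 rose at 47 of the 80 promoters and fell at 18 (edgeR quasi-likelihood test, Benjamini-Hochberg adjusted p under 0.05 over all regions), where 31.9% of all regions rose and 29.6% fell. The rises stood mostly on chromosome 19: 28 of 32 promoters rose there with a median log2 change of 0.62, and 1 fell. Of the 24 KRAB promoters of chromosome 19, 23 rose and none fell, with a median of 0.66. Elsewhere 19 of 48 rose and 17 fell, with a median of 0.00. The other protein-coding promoters of chromosome 19 had 214 of 287 higher, 9 lower and a median of 0.36.

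**Figure D3:**
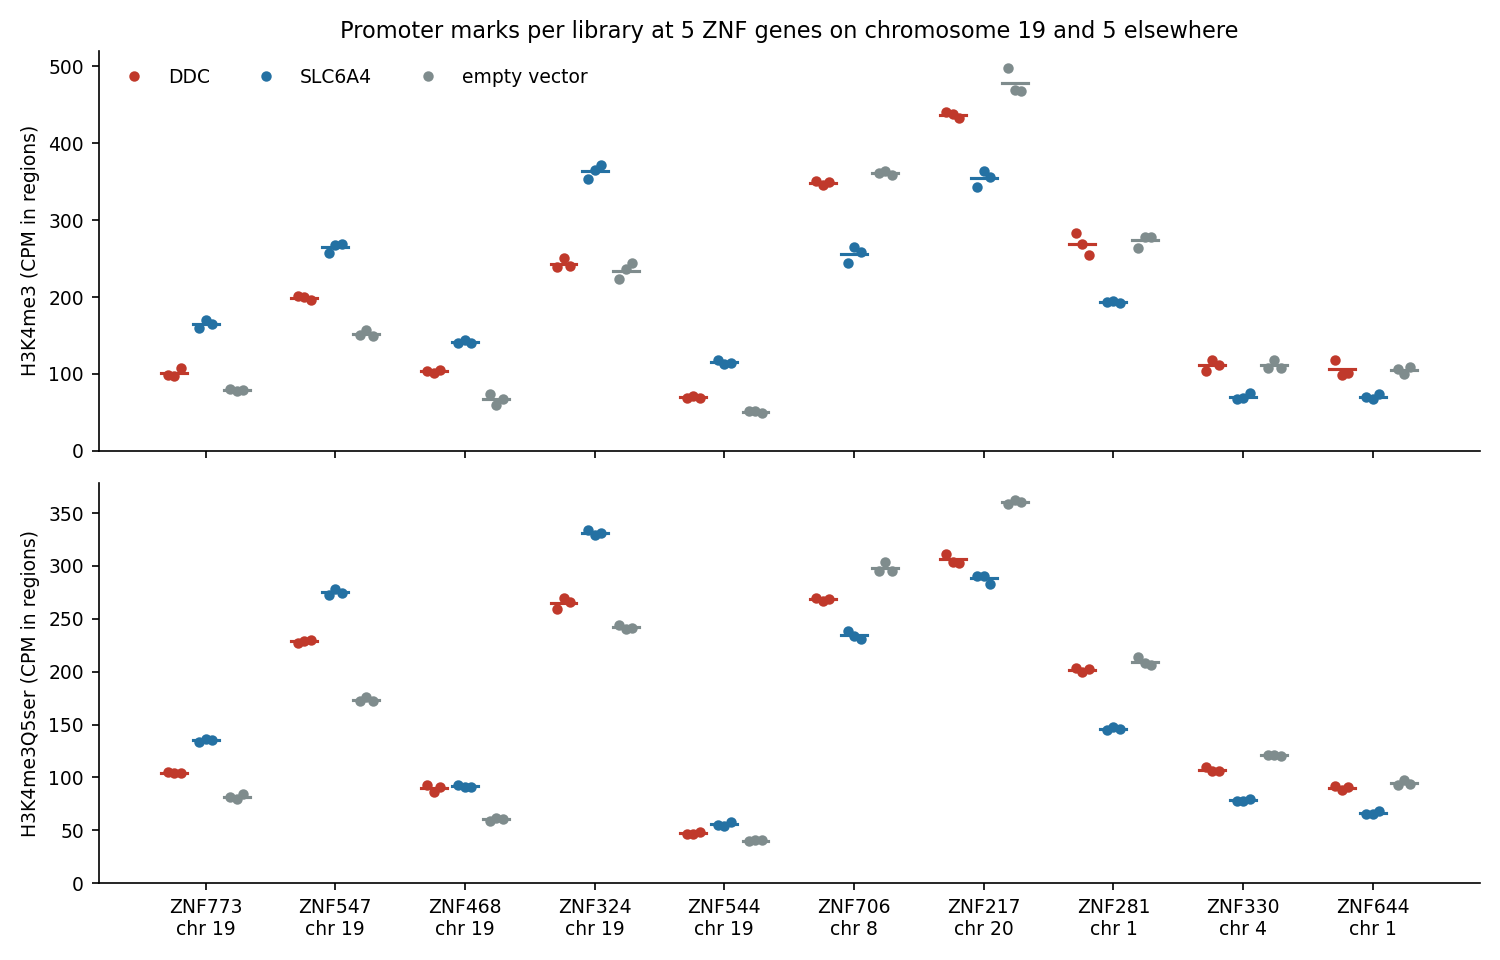
CPM of H3K4me3 and H3K4me3Q5ser per library at 10 promoters, for DDC, SLC6A4 and empty-vector cells. The promoters were picked by H3K4me3 in SLC6A4 cells, as rises on chromosome 19 and falls elsewhere. Each point is a library. For H3K4me3 at ZNF773 the 3 SLC6A4 libraries lie between 160 and 170 CPM, above all DDC libraries, which lie above all empty-vector libraries.

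ZNF773 (region chr19:57492060-57507912) had 98.5, 96.9 and 108 CPM of H3K4me3 in DDC cells and 160, 170 and 164 in SLC6A4 cells, against 80.0, 77.3 and 78.8 in empty-vector cells, a log2 change of 1.07 in SLC6A4 cells (adjusted p = 4.49e-86). The 3 lines did not overlap. ZNF468 (region chr19:52848646-52861302) had 104, 101 and 106 in DDC cells and 140, 144 and 141 in SLC6A4 cells, against 74.1, 59.7 and 67.4, a log2 change of 1.09. ZNF547 had 201.2, 200.5 and 196 in DDC cells and 257, 268 and 269 in SLC6A4 cells, against 151, 157 and 149, a log2 change of 0.80. ZNF544 had the greatest rise, with 118, 112 and 115 in SLC6A4 cells against 52.3, 51.4 and 48.9 in empty-vector cells, a log2 change of 1.18. All 4 carry a KRAB domain. ZNF16, on chromosome 8 and without KRAB, rose by a log2 change of 0.74.

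Of the 18 H3K4me3 falls in SLC6A4 cells, 17 lay outside chromosome 19. ZNF217, an oncogene amplified in breast cancer, had 441, 438 and 433 CPM in DDC cells and 343, 364 and 357 in SLC6A4 cells, against 498, 469 and 467 in empty-vector cells, a log2 change of -0.43 in SLC6A4 cells. ZNF281, a GC-box factor of stem cells and epithelial-mesenchymal transition, had 283, 269 and 255 in DDC cells and 193, 195 and 193 in SLC6A4 cells, against 264, 278 and 279, a log2 change of -0.50. ZNF330 had 104, 118 and 112 in DDC cells and 67.2, 68.5 and 75.1 in SLC6A4 cells, against 107, 118 and 108, a log2 change of -0.66. For ZNF281 and ZNF330 the DDC and empty-vector libraries overlapped and the SLC6A4 libraries stood below both. ZNF706, whose RNA also fell, had a log2 change of -0.50. The single fall on chromosome 19 was ZNF575 (-0.35), whose RNA fell too.

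H3K4me3Q5ser rose in SLC6A4 cells at 54 of the 80 promoters and fell at 23, beside 41.0% and 41.5% of all regions. On chromosome 19, 29 of 32 rose and 3 fell with a median of 0.45. Elsewhere 25 rose and 20 fell with a median of 0.10. The other protein-coding promoters of chromosome 19 had 251 of 290 higher and 23 lower with a median of 0.46. ZNF773 had 106, 104 and 104 CPM of H3K4me3Q5ser in DDC cells and 133, 137 and 136 in SLC6A4 cells, against 81.2, 79.5 and 83.9 in empty-vector cells, a log2 change of 0.73 in SLC6A4 cells. By adjusted p the clearest rises were those of ZNF581 (0.59), ZNF547 (0.67) and the SCAN gene ZNF496 (0.60), in that order, with ZNF773 next. ZNF281 (-0.52), ZNF330 (-0.62), ZNF217 (-0.32) and ZNF706 (-0.35) had the clearest falls, and the changes ran from -0.75 at ZNF575 to 0.81 at ZNF275.

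The serotonylated mark was then tested relative to H3K4me3 in the same lines. In SLC6A4 cells the relative mark rose at 12 of the 80 promoters and fell at 25, beside 14.5% and 14.7% of all regions. Scaling by library size alone gave 3 higher and 38 lower, and DESeq2 14 and 18. The shares over all regions under these 2 alternatives are not given here. On chromosome 19 it rose at 2 of 32 and fell at 19, with a median of -0.19, and among the 24 KRAB promoters there it fell at 17 and rose at none, with a median of -0.22. The other protein-coding promoters of chromosome 19 had 100 higher, 16 lower and a median of 0.13. ZNF544 illustrates the difference: against empty vector its log2 change in SLC6A4 cells was 1.18 for H3K4me3 and 0.47 for H3K4me3Q5ser, a relative change of -0.71 (adjusted p = 6.82e-17). Its H3K4me3Q5ser was 54.8, 54.5 and 57.5 CPM in SLC6A4 cells, against 39.5, 40.8 and 40.7 in empty-vector cells. ZNF468 (-0.48), ZNF426 (-0.62) and ZNF480 (-0.47), all with KRAB, also fell. ZNF581 (0.19), ZNF462 (0.30), a chromatin regulator of development, ZNF706 (0.15) and ZNF3 (0.16) rose. With library size alone the adjusted p was 0.207 for ZNF706 and 0.21 for ZNF3, and without empty vector 2 it was 0.0816 for ZNF3.

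In DDC cells H3K4me3Q5ser rose at 41 promoters and fell at 19 against empty vector, beside 29.7% and 31.5% of all regions, and H3K4me3 rose at 30 and fell at 2, beside 8.24% and 9.39%. Chromosome 19 held most of the rises. On chromosome 19 H3K4me3Q5ser rose at 26 of 32 and fell at 1 (median 0.27), and H3K4me3 rose at 20 and fell at none (median 0.31). Elsewhere H3K4me3Q5ser rose at 15 and fell at 18 (median -0.02), and H3K4me3 rose at 10 and fell at 2 (median 0.02). The other protein-coding promoters of chromosome 19 had 10 of 287 higher and 29 lower for H3K4me3, with a median of -0.04. For H3K4me3Q5ser their median was 0.09. Named by adjusted p, H3K4me3 rose at ZNF248 (0.31), ZNF468 (0.64), ZNF547 (0.39) and ZNF480 (0.62) and fell at ZNF217 (-0.12) and ZNF106 (-0.14). ZNF106 was not called without DDC 1 (adjusted p = 0.0638) or empty vector 2 (adjusted p = 0.0845). H3K4me3Q5ser rose at ZNF547 (0.40), ZNF468 (0.58), ZNF600 (0.62) and ZNF320 (0.61) and fell at ZNF217 (-0.24), ZNF672 (-0.30), ZNF692 (-0.30) and ZNF706 (-0.15). Relative to H3K4me3, the serotonylated mark rose at 7 and fell at 8 promoters in DDC cells, beside 5.15% and 9.9% of all regions, with a median of 0.00.

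**Figure D4:**
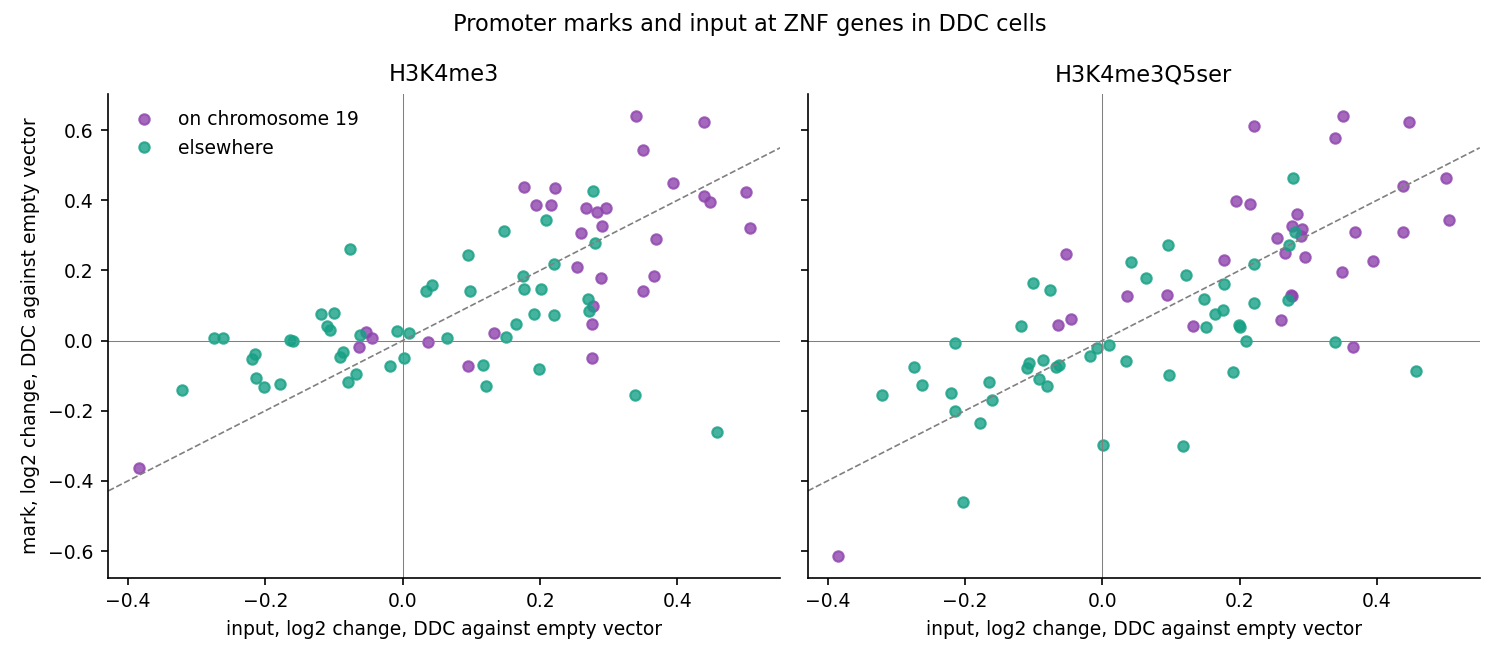
Log2 change of each mark in DDC cells against empty vector (vertical) and of the input (horizontal) at ZNF promoters on chromosome 19 and elsewhere; each point is a region and the dashed line is equality. Median input changes are 0.28 on chromosome 19 and 0.16 over all ZNF promoters, and the points scatter around the line.

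The input moved with the marks in DDC cells. Input rose at 20 ZNF promoters and fell at 3, beside 2.68% and 3.61% of all regions, with a median of 0.16. On chromosome 19 its median was 0.28, and on the KRAB promoters there it was 0.29, with 14 higher and none lower. Over the other protein-coding promoters of chromosome 19 the median input change was 0.08. ZNF773 had 152, 137 and 134 CPM of input in DDC cells, against 115, 117 and 116 in empty-vector cells, and ZNF468 had 129, 114 and 123, against 101, 94.6 and 94.0. Tested relative to input, a comparison added after these values were seen, H3K4me3 rose at 1 promoter, ZNF248 (0.18), and fell at none, beside 0.471% and 0.178% of all regions. H3K4me3Q5ser rose at 4 and fell at 3, beside 2.28% and 3.23%. On chromosome 19 the medians were then 0.04 for H3K4me3 and 0.05 for H3K4me3Q5ser. ZNF547 (0.23) and ZNF320 (0.42) were among the 4 that rose, and ZNF672 (-0.27) and ZNF692 (-0.39) among the 3 that fell. Input of SLC6A4 cells was not analysed here, so the rises in that line were not tested relative to input.

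DDC cells were also set directly against SLC6A4 cells. H3K4me3 was higher at 18 and lower at 41 promoters, beside 29.3% and 30.9% of all regions. On chromosome 19 it was lower at 24 of 32 and higher at 1, with a median of -0.40, next to a median of -0.39 over the other protein-coding promoters of that chromosome. ZNF324 (-0.58), ZNF773 (-0.70), ZNF16 (-0.47) and ZNF581 (-0.41) were lower in DDC cells, and ZNF248 (0.44), ZNF706 (0.44), ZNF281 (0.47) and ZNF330 (0.66) higher. H3K4me3Q5ser was higher at 23 and lower at 44, beside 38.0% and 38.9%. Its chromosome 19 median was -0.13, against -0.38 over the other promoters there. ZNF581 (-0.46), ZNF584 (-0.53), ZNF335 (-0.54), a component of H3K4 methyltransferase complexes, and ZNF324 (-0.32) were lower, and ZNF248 (0.31), ZNF281 (0.46), ZNF330 (0.45) and ZNF644 (0.44), a partner of the methyltransferase G9a, higher. Several of these calls were lost or reversed with the GC trend removed, as given with base composition.

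**Figure D5:**
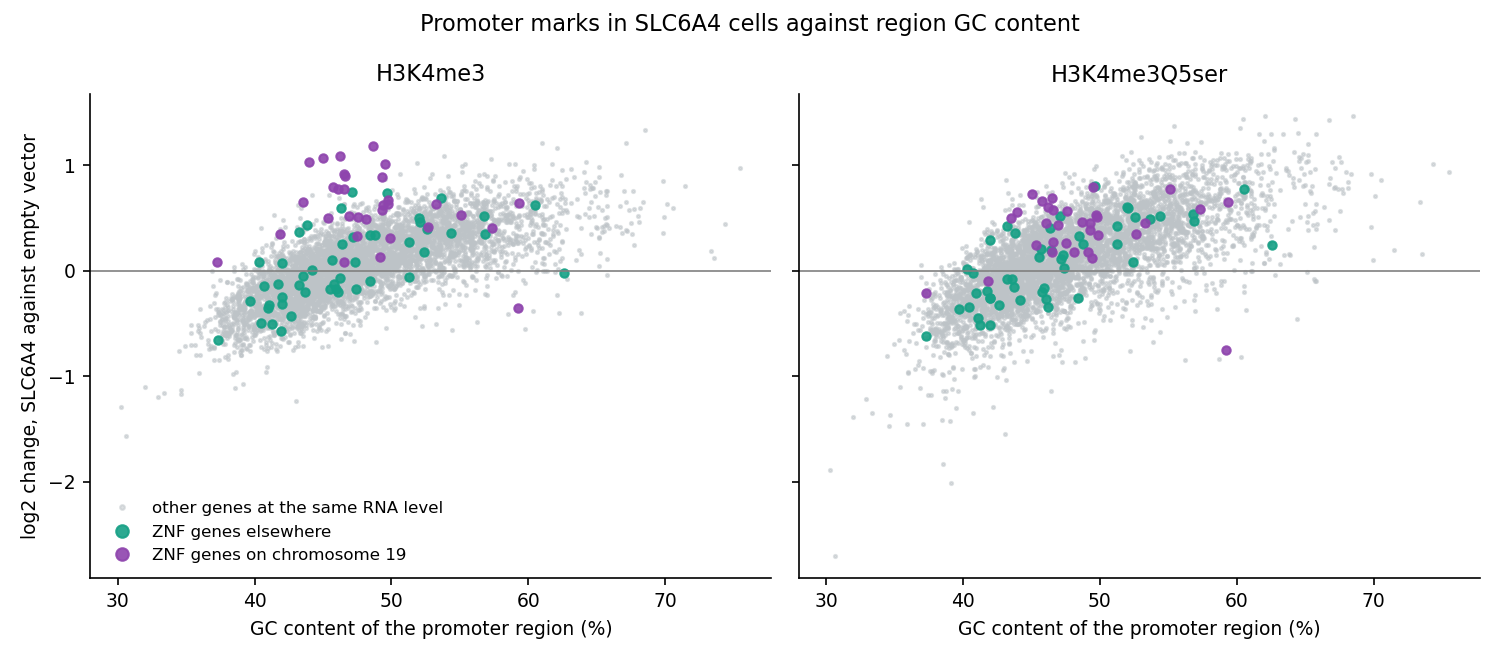
Log2 change of H3K4me3 and of H3K4me3Q5ser in SLC6A4 cells against empty vector (vertical) by the GC percent of the region (horizontal), for ZNF promoters on chromosome 19, ZNF promoters elsewhere and other protein-coding genes; each point is a region. Elsewhere the ZNF promoters follow the slope of the other genes, and most chromosome 19 ZNF promoters lie above it for H3K4me3.

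Changes in SLC6A4 cells moved with base composition. Across 5412 regions of other protein-coding genes, Pearson's r between region GC and the H3K4me3 change was 0.72, and across the 48 ZNF regions outside chromosome 19 it was 0.64. Across the 32 ZNF regions of chromosome 19 it was -0.21. For H3K4me3Q5ser the values were 0.70, 0.72 and 0.04. These are descriptions over regions that share libraries and scaling. Median GC was 47.8% in the chromosome 19 ZNF regions, 46.0% in those elsewhere, 47.1% in the other genes and 54.2% in the other genes of chromosome 19. With a GC trend taken out of each library, a step added after this relation was seen, H3K4me3 in SLC6A4 cells rose at 47 ZNF promoters and fell at 10, beside 21.9% and 19.2% of all regions. It rose at 27 of 32 on chromosome 19 and fell at 1, with a median of 0.51, while the median over the other genes of that chromosome became 0.08. The 24 KRAB promoters there all rose, with a median of 0.65. H3K4me3Q5ser then rose at 57 and fell at 13, beside 37.6% and 35.9%, with medians of 0.31 on chromosome 19 and 0.13 over the other genes there. Of the falls, ZNF281 had -0.20 for H3K4me3, ZNF330 had -0.06 (adjusted p = 0.415) and its H3K4me3Q5ser turned to 0.14, and that of ZNF706 turned to 0.09. In the direct contrast H3K4me3 was then higher at 6 and lower at 36 promoters, and H3K4me3Q5ser higher at 11 and lower at 41. The matching shares over all regions are not given here, so these counts are only a description. In that contrast ZNF581 turned to 0.06 for H3K4me3 and ZNF330 to -0.14 for H3K4me3Q5ser. ZNF706 had 0.07 for H3K4me3 (adjusted p = 0.0653) and -0.17 for H3K4me3Q5ser. The H3K4me3 difference at ZNF330 became 0.12 (adjusted p = 0.0939). For H3K4me3Q5ser, ZNF581 (-0.01, adjusted p = 0.414), ZNF584 (-0.01, adjusted p = 0.87) and ZNF324 (-0.03, adjusted p = 0.0712) were no longer called.

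Mark and RNA were set side by side at the called genes. ZNF706 had lower RNA (-0.41), lower H3K4me3 (-0.50) and lower H3K4me3Q5ser (-0.35) in SLC6A4 cells than in empty-vector cells. With the GC trend removed, its H3K4me3Q5ser change turned to 0.09, while its H3K4me3 fall was still called. ZNF511 had lower RNA in SLC6A4 cells (-0.80) while its promoter had 32.0, 36.5 and 31.3 CPM of H3K4me3 there, against 25.6, 26.4 and 26.1 in empty-vector cells, a log2 change of 0.35. The ZNF511 change in H3K4me3Q5ser was 0.47. With the GC trend removed, neither rise at ZNF511 passed the test (-0.03 for H3K4me3, adjusted p = 0.86, and 0.01 for H3K4me3Q5ser, adjusted p = 0.814). ZNF672 rose in RNA in both lines while its H3K4me3Q5ser fell, by 0.30 in DDC cells and by 0.26 in SLC6A4 cells on the log2 scale. In the direct contrast ZNF275 was lower in DDC cells by RNA (-0.45), by H3K4me3 (-0.47) and by H3K4me3Q5ser (-0.66). Across the 81 genes with both measures, Pearson's r between the RNA and H3K4me3 changes was 0.21 in DDC cells, 0.01 in SLC6A4 cells and -0.21 in the direct contrast, and for H3K4me3Q5ser it was 0.24, 0.14 and 0.09. The signs were the same for 42, 44 and 25 genes with H3K4me3 and for 48, 45 and 37 with H3K4me3Q5ser.

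The peak lists placed an H3K4me3 peak at 79 of the 84 starts and an H3K4me3Q5ser peak at 83, or 94.0% and 98.8%, next to 90.2% and 96.4% of protein-coding genes at the same expression level. In CUT&Tag, 11 starts (13.1%) lay at a peak that the authors listed as up and 69 (82.1%) at one listed as not up, next to 19.8% and 79.4%. The 11 were ZNF593, ZNF622, ZNF791, ZNF766, ZNF3, ZNF490, ZNF574, ZNF664, ZNF638, ZNF627 and ZNF623. A start could be in both counts, as were ZNF791 and ZNF490. These genes share a peak listed as not up, which had the lowest ratio of SLC6A4 to control cells given below (0.79). CPM values were used for the peaks listed as not up, in which the highest ratio of SLC6A4 to control cells over all 13882 peaks was 1.25. The list therefore cuts off higher ratios, and its 0.0% of peaks at least 1.5-fold higher says nothing about rises. Within that limit, the 67 such peaks at ZNF starts had ratios from 0.79 to 1.24 with a median of 1.14, next to 1.07 over all listed peaks. None was 1.5-fold lower, beside 1.01% of all listed peaks. The median was 1.13 on chromosome 19 and 1.15 elsewhere, so the ChIP difference by chromosome was not seen among these listed peaks. Of genes named for a ChIP rise, ZNF773 had 1.08, ZNF468 1.06, ZNF547 1.16, ZNF544 1.09 and ZNF16 1.22. Of those named for a fall, ZNF217 had 0.84, ZNF281 1.09, ZNF330 1.16 and ZNF706 1.15. Why CUT&Tag and ChIP differed was not tested. The ratio of SLC6A4 cells with the TGM2 shRNA to SLC6A4 cells, over the same listed peaks, had a median of 0.95, from 0.68 to 1.24, next to 0.94 over all listed peaks. None was 1.5-fold higher or lower, beside 0.151% and 1.12%. With 1 library per group there was no replicate check.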

How the data were processed

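RNA values were the authors' DESeq2-normalised signal, 1 deposited table per overexpression line with shared empty-vector libraries. Per the submitters' processing notes the tools were FastQC, HISAT2 2.1.0, DESeq2, Bowtie2, MACS2, HOMER and featureCounts, with GRCh38. The authors' log2 fold changes, p-values and Wald-statistic scores in these tables were not used. Their ChIP table held expected counts, read pairs that featureCounts 2.0.3 split among overlapping regions per the file headers, with duplicates removed per the column names, so 9.78% of cells were not whole; they were rounded for testing. Deposited CUT&Tag values were CPM for 13882 peaks listed as not up.

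RNA was tested with limma 3.58.1 on log2(value + 1), keeping genes that reached 10 in 3 or more libraries, so fold changes of low genes are understated. All RNA values were whole multiples of 1 read's worth within a tolerance of 1e-06, and edgeR on the recovered reads called 2312 genes for DDC, 2594 for SLC6A4 and 1812 directly, against 2281, 2579 and 1789 with limma. The direct contrast used these reads with size factors shared by 9 libraries. IDs with no gene name (20966) held 4.65% to 4.98% of reads and stayed out. Promoter regions within 1000 bp of a start were tested with edgeR 4.0.16 quasi-likelihood, TMM scaling, per mark over all regions; the relative tests were interactions. The count tests were tested on simulated data. Domains and fingers were sequence matches in translated GENCODE 44 canonical transcripts, and promoters came from RefSeq. Named genes were called ones with groups that did not overlap (RNA), the 4 smallest adjusted p each way (marks), the 6 highest levels per kilobase, 3 genes each side of the threshold, and called genes of the lists. The genes and lists were chosen with earlier results of these data known. Alternatives were other scalings, tools, pseudocounts, filters, windows, left-out libraries and the replicate block. R 4.3.3 and Python 3.11.15 were used. The CUT&Tag libraries of drug-treated DDC cells were not analysed here.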

Additional observations from a re-analysis of the deposited data

Results flagged for a closer look

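Differences between the DDC and SLC6A4 effects were tested directly. In RNA the log2 difference, DDC minus SLC6A4, was 0.58 for ZNF575, 0.57 for ZNF83, 0.53 for ZNF587, 0.41 for ZNF622, 0.36 for ZNF706 and 0.27 for ZNF248. It was -0.47 for ZNF106, -0.45 for ZNF275 and -0.35 for ZNF771.

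H3K4me3 differed between the lines at 59 ZNF promoters (25 on chromosome 19), beside 29.3% of all regions higher in DDC cells and 30.9% lower. The smallest adjusted p were those of ZNF330 (0.66), ZNF281 (0.47), ZNF248 (0.44) and ZNF706 (0.44), higher in DDC cells, and of ZNF773 (-0.70), ZNF324 (-0.58), ZNF16 (-0.47) and ZNF581 (-0.41), lower in DDC cells. H3K4me3Q5ser differed at 67 promoters (25 on chromosome 19), beside 38.0% of all regions higher in DDC cells and 38.9% lower, so most regions differed. ZNF281 (0.46), ZNF330 (0.45), ZNF644 (0.44) and ZNF248 (0.31) were higher in DDC cells, and ZNF335 (-0.54), ZNF584 (-0.53), ZNF581 (-0.46) and ZNF324 (-0.32) lower. With the GC trend removed, ZNF584 (adjusted p = 0.87), ZNF581 (0.414) and ZNF324 (0.0712) were no longer called for H3K4me3Q5ser, nor ZNF330 (0.0939), ZNF706 (0.0653) and ZNF581 (0.12) for H3K4me3, and ZNF330 reversed for H3K4me3Q5ser.

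The input, which is no mark, also differed between DDC and empty-vector cells, with a median log2 change of 0.28 over the ZNF promoters of chromosome 19. Its part in the mark changes of SLC6A4 cells was not tested.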

How the results depend on the processing

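Of 119 counts of called ZNF genes or promoters under alternatives other than a left-out library, 107 stayed within 1.5 times the reported count and 12 did not, and 454 of 512 values of named genes kept direction and call, 48 lost the call and 10 reversed. In RNA, DESeq2 called 4 genes for DDC and 7 for SLC6A4 instead of 8 and 12, and a threshold of 100 in place of 50 left 4 for DDC. Over all genes DESeq2 called 1468 for DDC and 1669 for SLC6A4 instead of 2281 and 2579. Leaving out 1 library gave 5 to 10 genes for DDC (5 without empty vector 3), 9 to 12 for SLC6A4 and 5 to 11 directly (5 without SLC6A4 1). Relative to input in DDC cells, H3K4me3Q5ser was called at 7 promoters (2 higher on chromosome 19) and H3K4me3 at 1 (0 there); with library size alone these were 4 (1) and 0 (0). ZNF706 H3K4me3Q5ser then reversed to 0.10 and 0.065, ZNF217 H3K4me3 to 0.069 and 0.048, and ZNF106 to 0.19 and 0.17. With the GC trend removed, H3K4me3Q5ser relative to H3K4me3 was called at 8 promoters in DDC cells, H3K4me3Q5ser in SLC6A4 cells reversed at ZNF330 (0.14) and ZNF706 (0.092), and the direct contrast reversed at ZNF330 (-0.14, H3K4me3Q5ser) and ZNF581 (0.060, H3K4me3). The cause was not tested. Same-numbered libraries did not deviate together, and a replicate block called 10, 11 and 10 genes in RNA and 60, 77 and 66 promoters for H3K4me3Q5ser in the DDC, SLC6A4 and direct comparisons. Input had the lowest depth, which limits the tests relative to it.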

Other observations

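ZNF genes under the expression threshold had promoter values of the same kind. Of 161 such promoters on chromosome 19, H3K4me3 in SLC6A4 cells rose at 146 and fell at 1, with a median log2 change of 0.72, beside 31.9% of all regions higher, and in DDC cells it rose at 116 and fell at 1, with a median of 0.40, beside 8.24% of all regions higher. Relative to input, H3K4me3 in DDC cells was called higher at 1 of 159 of these promoters and lower at none, with a median of 0.07. The serotonylated mark relative to H3K4me3 rose at 3 and fell at 107 of these promoters in SLC6A4 cells, with a median of -0.31. Input in DDC cells rose at 63 of 156 and fell at none, with a median of 0.33. In RNA, 107 of these chromosome 19 genes could be tested between DDC and SLC6A4 cells, of which 3 were higher and none lower, with a median of 0.20.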
